A study of Mus musculus with 12 samples.

Results

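Mouse embryos of the CD-1 strain were electroporated in the medial telencephalon with a first set of siRNAs against Dmrt3 and Dmrta2, called set 1 here, or with control siRNAs, and the transcripts of the transfected cells were compared. The comparison sets the 3 arrays labelled as set 1 against the 3 labelled as control siRNAs, 6 of the 12 arrays of the series. It covers all 15368 genes that could be named and measured, and the spread was estimated over all 12 arrays. The siRNAs were given at stage E11.5 (embryonic day) together with a plasmid for a nuclear green fluorescent protein, which every group received, and fluorescent cells were sorted 24 hours later, at E12.5. RNA from these cells (0.1 ug per labelling reaction) was hybridised to single-colour Agilent arrays. The other arrays held a second siRNA set against the same pair of genes, set 2, and an expression plasmid for Dmrta2, with 3 replicates in each of the 4 groups. Control siRNAs were the only control group, so the electroporation, the fluorescent plasmid and the sorting were shared by all groups. The labels call the replicates independent and do not say whether they came from separate litters, so p-values measure the spread between these samples. The siRNA sequences were not analysed here.

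Dmrt3 and Dmrta2 encode transcription factors with a DM domain, a zinc-finger module that binds DNA. Both are made in progenitor cells of the dorsal and medial telencephalon, the tissue that gives rise to the cortex, the hippocampus and, at its edge, the cortical hem, a source of Wnt and BMP signals. Progenitors of the ventral telencephalon use other factors, such as Gsx2, Dlx2 and Olig2, and are known to form interneurons and striatal neurons. A small interfering RNA is loaded into an Argonaute protein and directs the cleavage of transcripts that match it.

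Each array lay on 1 of 3 slides, and replicate numbers 1, 2 and 3 correspond to those slides. The fit therefore compared set 1 with control within slides, with the replicate number as a block. Every slide carried the groups at the same 4 positions, and the effects of position and group cannot be told apart. A level is given below as a percentage of the signal of the spot at the 75th percentile of its array, called the scaled level, and levels are always listed in the order of slides 1, 2 and 3. A level of 100% is that of the 75th percentile spot. The scale compares 1 probe between arrays and does not compare genes with each other. Differences are log2 differences, set 1 minus control, with limma's moderated standard error (SE), and n is 3 arrays against 3 throughout. A gene was called, and is said to have risen or fallen, when its adjusted p from limma was under 0.05 over all genes. Between 67.1% and 72.2% of spots on an array were well above background. All 10 telencephalic progenitor markers and all 8 neuronal markers that were looked up were measured.

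The targeted transcripts are the check of the labels. Dmrt3 had scaled levels of 104, 125 and 159.7% under control siRNAs and of 45.8, 91.3 and 60.6% under set 1. Its 3 set 1 arrays all lay below the 3 controls, at 49.5% of the control level on average. The log2 difference was -1.01 ± 0.16, with a 95% interval from -1.39 to -0.64 and an adjusted p = 0.041 with the block and 0.235 without it, and the call stood in 1 of the 12 fits that leave out 1 array. Dmrta2 had scaled levels of 659, 516 and 611% under control siRNAs and of 439.7, 358 and 369.8% under set 1. Again no set 1 array reached a control array, and the mean stood at 65.5% of control. The difference of -0.61 ± 0.14 did not pass the threshold (adjusted p = 0.108). Exact two-sided permutation tests gave p = 0.1 for both genes, the smallest p that 3 against 3 allows. On slides 1, 2 and 3 the difference was -1.19, -0.46 and -1.40 for Dmrt3, and -0.58, -0.53 and -0.72 for Dmrta2. In bulk RNA from sorted cells, fewer cells that make a transcript and less of it per cell cannot be told apart. The Dmrt family list had 8 measured genes, of which Dmrt3 was the only 1 called, and the median difference was -0.01 over the list, -0.22 over its 5 genes well above background on all 6 arrays, and -0.01 over all genes tested.

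**Figure D1:**
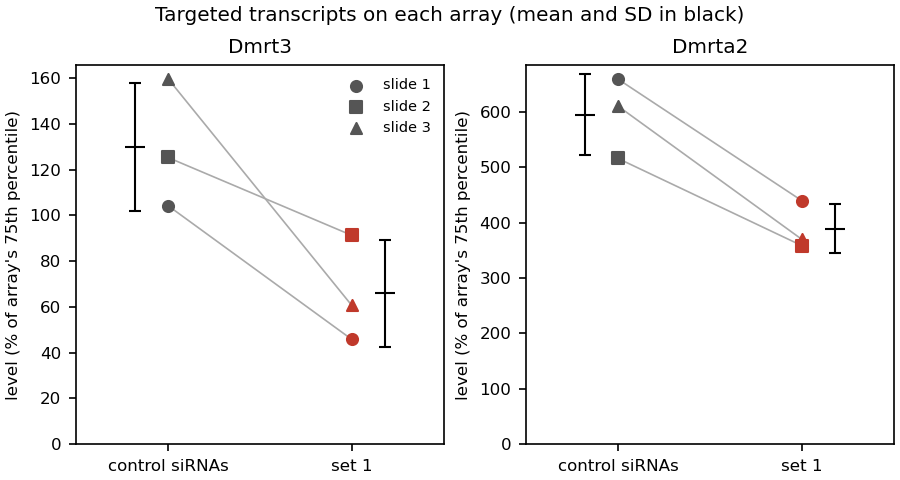
Scaled levels of Dmrt3 and Dmrta2 on the 3 control and 3 set 1 arrays, as a percentage of each array's 75th percentile signal; grey lines join arrays of 1 slide, and black bars are the mean and SD of the 3 arrays. For both genes every set 1 array lies below every control array, and Dmrt3 falls least on slide 2, from 125 to 91.3%.

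The genes called in set 1 against control siRNAs were mostly higher in set 1. Of the 15368 genes tested, 115 (0.748%) were called, 88 higher (0.573%) and 27 lower (0.176%), and 52 of these differed by at least 1 on the log2 scale, 42 up and 10 down. The median difference was 0.98 among the genes called higher and -0.85 among those called lower. All 3 set 1 arrays lay above all 3 controls for 86 of the 88 genes called higher, against 7.48% of all genes tested, and below for 26 of the 27 called lower, against 7.09% of all genes tested. These genes were called on the same arrays, so their separation is part of the choice. An unadjusted p under 0.05 was reached by 2133 genes, where 768 would be expected with no difference anywhere. Every called gene had the same sign on each of the 3 slides. Without the replicate block 33 genes were called, 23 higher and 10 lower, all of them among the 115. A fit of the 6 arrays alone called 0 genes with the block and 0 without it. The smallest adjusted p by limma was then 0.158 and 0.0706. The count of 115 in the main fit rested on each array: without control replicates 1, 2 and 3 it was 0, 146 and 5, and without set 1 replicates 1, 2 and 3 it was 4, 10 and 13. It also moved with the arrays of other groups, which enter only the estimate of the spread, being 37, 66 and 27 without 1 set 2 array and 23, 89 and 60 without 1 overexpression array. No called gene changed sign in any of those 12 fits. No gene kept its call in all 12, 22 genes kept it in none, and Tacr3, Emilin2 and Gldc kept it in 11.

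**Figure D2:**
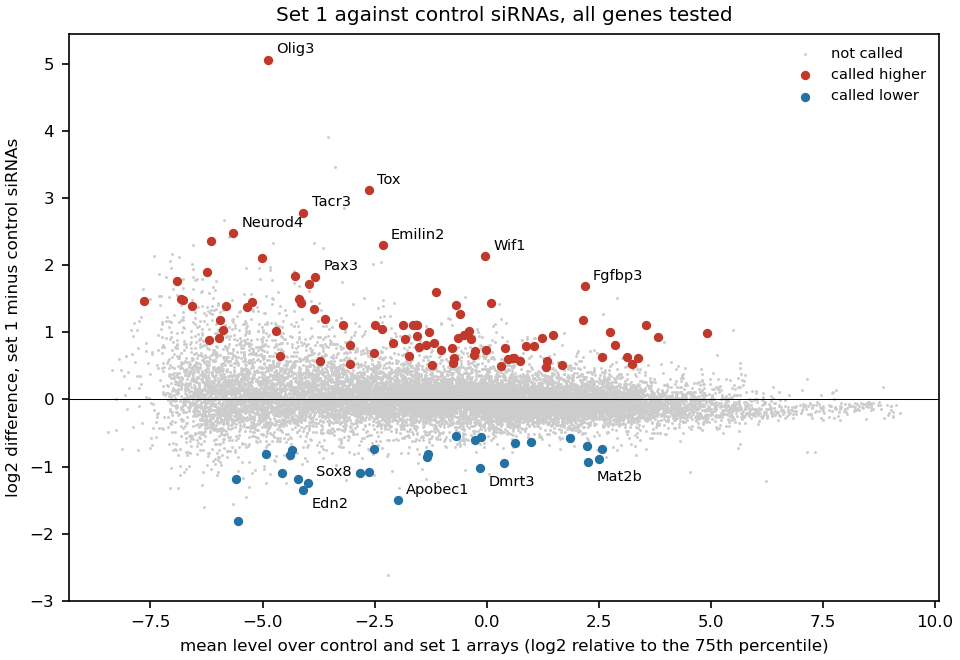
Log2 difference between set 1 and control siRNAs against the mean log2 level over the 6 arrays for all 15368 genes; red points are the 88 genes called higher, blue points the 27 called lower and grey points the rest. The rises reach 5.07 (Olig3, over control arrays mostly not well above background) and the falls are smaller.

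Transcription factors of neighbouring and ventral brain regions were among the genes that rose. Olig3, a basic helix-loop-helix (bHLH) factor of dorsal neural tube and thalamic progenitors, had scaled levels of 0.388, 1.3 and 0.4% under control siRNAs and of 18.3, 16.4 and 25.4% under set 1. Only the control array of slide 2 was well above background, and every set 1 array was far above all controls. The fitted difference was 5.07 ± 0.50 (adjusted p = 0.0155), the call stood in 9 of the 12 fits that leave out 1 array, and the difference ran from 4.56 to 5.83 over them. With the 2 dim controls raised to the dimmest signal that counts as well above background, the rise was 14.5-fold (3.85 on the log2 scale). Olig2, a bHLH factor of ventral progenitors and the oligodendrocyte lineage, went from 4.94, 5.12 and 3.25% to 11.6, 9.58 and 12.2%, and all arrays were measured. Its groups did not overlap and the difference was 1.35 ± 0.23 (adjusted p = 0.0486 with the block and 0.0516 without it). Neurod4, a bHLH factor of differentiating neurons, was well above background on 1 control array (0.776, 1.38 and 0.554%) and on all set 1 arrays (4.75, 4.44 and 4.87%). It rose by 2.48 ± 0.39 (adjusted p = 0.0366), or 3.38-fold with the dim controls at the lowest measured signal.

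The promoters of Olig3, the gene with the largest rise, and of Olig2 and Tacr3, a pair of well measured genes that rose, are shown as the 250 bases before the start of the RefSeq transcript, on the plus strand of GRCm38.p6. Capitals mark the letters ACATTGT or their reverse complement ACAATGT, the core that DM-domain factors are known to bind, and the TATA box letters TATAAA or TTTATA.
Olig3 (chr10:19356289-19356538): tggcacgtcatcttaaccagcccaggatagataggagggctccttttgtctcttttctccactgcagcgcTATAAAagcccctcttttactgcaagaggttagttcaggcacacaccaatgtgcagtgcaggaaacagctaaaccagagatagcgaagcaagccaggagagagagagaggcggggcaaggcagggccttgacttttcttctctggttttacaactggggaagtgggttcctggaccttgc
Olig2 (chr16:91225300-91225549): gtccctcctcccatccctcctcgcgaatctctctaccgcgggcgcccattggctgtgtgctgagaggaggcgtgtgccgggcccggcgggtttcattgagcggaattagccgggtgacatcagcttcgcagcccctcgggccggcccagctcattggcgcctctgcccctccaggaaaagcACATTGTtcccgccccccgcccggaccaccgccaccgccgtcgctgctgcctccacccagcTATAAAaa
Tacr3 (chr3:134828757-134829006): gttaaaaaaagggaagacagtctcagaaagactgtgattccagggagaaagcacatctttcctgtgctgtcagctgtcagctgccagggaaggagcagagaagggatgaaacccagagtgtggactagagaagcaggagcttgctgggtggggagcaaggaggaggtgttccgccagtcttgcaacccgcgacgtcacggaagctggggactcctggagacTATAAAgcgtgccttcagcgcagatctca
The DM core occurred in the promoter window of 217 of 12210 tested genes with a promoter sequence (1.78%), in 1 of 67 genes called higher (Olig2) and in 0 of 24 called lower. In Olig2 the match began at position -69 from the transcript start. Part of this core, ACAATG, is also a core that SOX factors bind, and a match does not show that a factor sits there. The TATA box letters occurred in 9.91% of all those promoters, in 11 of the 67 genes called higher and in 6 of the 24 called lower. Olig3, Olig2 and Tacr3 each held them, whereas the 2 windows of Emilin2, another of the largest rises, held neither motif and are not shown.

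Tox, which encodes a nuclear protein with an HMG box, had control levels of 7.68, 7.51 and 2.83% and set 1 levels of 58, 38.3 and 48.4%. The lowest set 1 array was far above the highest control, and the rise was 8.7-fold (3.12 ± 0.33, adjusted p = 0.0177). The other members of the Tox family list, 3 genes, were not called, and the list's median difference was 0.01. Pax3, a paired-box factor of the dorsal neural tube and neural crest, went from 4.1, 2.71 and 4.65% to 12.7, 14.7 and 12.49%, a difference of 1.83 ± 0.21 (adjusted p = 0.02). A second Pax3 probe, measured on 3 of the 6 arrays, gave 3.07. Foxn4, a forkhead factor of retinal and spinal progenitors, rose by 1.73 ± 0.23 (adjusted p = 0.0264), from 3.23, 5.47 and 2.5% to 11.9, 13.1 and 10.3%. Isl1, a LIM-homeodomain factor of motor and striatal neurons, was well above background on no control array. It stood at 1.54, 1.38 and 1.69% under set 1, on average at least 1.21-fold higher (adjusted p = 0.0365 with the block and 0.0664 without it). Etv1, an ETS factor used in FGF signalling and in ventral progenitors, rose from 69, 77.1 and 51.1% to 125, 119 and 82.6% (0.72 ± 0.12, adjusted p = 0.0469 with the block and 0.3 without it), and its second probe, measured on 3 of the 6 arrays, gave 1.63.

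Among the lists these genes belong to, the ventral telencephalic regulators had 3 of 18 measured members called, all higher (Isl1, Olig2 and Etv1), where 0.748% of all genes tested were called, and 0.573% higher. Isl1 was well above background on 3 set 1 arrays, 1 set 2 array and no other array. It was kept only through arrays where it is high, so its call adds no support to that count. The 3 calls were also fragile. The list held 0 calls without the replicate block, 1 with quantile normalization and 0 without any 1 slide. Olig2 and Etv1 kept their calls in 0 of the 12 fits that leave out 1 array, and Isl1 in 2. Of the 18 differences 14 were above 0, against 48.4% of all genes tested. The median was 0.55 over the 18 genes but 0.09 over the 10 that were well above background on all 6 arrays. Nkx2-1, Lhx8, Helt and Sp9 of that list were not well above background on enough arrays, and Gsx2 and Dlx2 were measured but not called. The diencephalic and neighbouring region regulators had 1 of 16 called (Olig3), with a median of 0.11 that was -0.02 without slide 1. The proneural and neuronal bHLH factors had 2 of 15 called (Neurod4 and Olig3), with a median of 0.18. Over all genes tested the median was -0.01. The dorsal telencephalic regulators had 0 of 19 called by limma, 5 with an unadjusted p under 0.05, and a median of -0.03. Pax6, a homeodomain factor of dorsal progenitors, had levels of 70.5, 80.5 and 75.1% under control siRNAs and 117, 246 and 144% under set 1. Those arrays did not overlap, the difference was 1.09 ± 0.22 and the adjusted p was 0.0715, short of the threshold. Eomes, a factor of intermediate progenitors, differed by 0.53 ± 0.20 (adjusted p = 0.291), the proneural factor Neurog2 by 0.46 ± 0.14 (adjusted p = 0.209) and Insm1, a zinc-finger factor of newborn neurons, by 0.57 ± 0.29 (adjusted p = 0.426).

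Receptors and secreted regulators formed another part of the calls. Tacr3, the receptor for neurokinin B, had control levels of 3.07, 1.59 and 2.28% and set 1 levels of 17.6, 14.9 and 14%, all well above background. The lowest set 1 array was several times the highest control, and the rise was 6.89-fold (2.79 ± 0.23, adjusted p = 0.0063). Ednra, a receptor for endothelins, rose by 2.10 ± 0.31 (adjusted p = 0.0326 with the block and 0.0527 without it), from 1.5, 1.88 and 1.21%, of which 1 array was measured, to 9.23, 6.73 and 4.36%. Edn2, an endothelin ligand, fell from 9.56, 7.46 and 11.2% to 3.98, 3.04 and 4.06% (-1.34 ± 0.19, adjusted p = 0.0266). These 3 were the calls among 11 measured genes of the tachykinin, endothelin and receptor list, 2 higher and 1 lower, where 0.748% of all genes tested were called, and the list's median difference was 0.02. Wif1, a secreted protein that binds Wnt ligands, rose 4.4-fold, from 39.1, 48.3 and 52.8% to 226, 194 and 194% (2.14 ± 0.34, adjusted p = 0.0394 with the block and 0.0542 without it). It was the only call among 13 measured Wnt/beta-catenin targets, of which 12 had a difference above 0, with a median of 0.36. Of all genes tested, 48.4% had a difference above 0. The list held 0 calls without the replicate block and 0 without any 1 slide. Fgfbp3, a secreted carrier of fibroblast growth factors, rose 3.21-fold, from 311, 365 and 142% to 889.5, 865 and 696% (1.68 ± 0.18, adjusted p = 0.0177 with the block and 0.0747 without it). The rostral FGF signalling list had 1 of 13 measured genes called, Etv1, with a median of 0.15. The median was 0.03 over the 11 of them well above background on all 6 arrays, and 0.04 and 0.06 without slides 1 and 3.

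Ligands and modulators of the BMP and TGF-beta family moved both ways. Bmp2, a ligand, fell from 10.3, 7.84 and 6.57% to 4.38, 4.26 and 2.45% (-1.18 ± 0.20, adjusted p = 0.0486 with the block and 0.169 without it), and kept its call in none of the 12 fits without 1 array. Bmper, a secreted protein that binds BMPs, fell from 58.4, 49.9 and 53.2% to 33.2, 29.9 and 28.9% (-0.81 ± 0.11, adjusted p = 0.0264 with the block and 0.0516 without it). Tgfb3, a ligand of the TGF-beta group, rose from 43.1, 54.2 and 43.6% to 79.7, 113 and 75.2% (0.91 ± 0.11, adjusted p = 0.0214 with the block and 0.0689 without it). The groups did not overlap for any of these 3 genes, as for nearly all genes called on these arrays. Of the BMP response list, 0 of 11 measured genes were called by limma, 1 had an unadjusted p under 0.05, 8 of 11 differences were below 0 and the median was -0.15, or -0.09 over the 9 genes well above background on all 6 arrays. Id3 and Id4, direct targets of BMP signalling, differed by 0.34 ± 0.20 (adjusted p = 0.481) and -0.43 ± 0.22 (adjusted p = 0.424), Nog, a BMP antagonist, by -0.22 ± 0.16 (adjusted p = 0.553), and the inhibitory Smad gene Smad7 by -0.17 ± 0.10 (adjusted p = 0.461).

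Some genes with products in the extracellular matrix, the cytoskeleton or the cell surface were among the calls. Emilin2, a glycoprotein of elastic fibres, had control levels of 8.18, 12.2 and 7.29% and set 1 levels of 51.7, 51.9 and 32.3%. Its lowest set 1 array exceeded the highest control more than the controls differed among themselves, and the difference was 2.30 ± 0.17 (adjusted p = 0.00515), a 4.92-fold rise. The extracellular matrix list had 1 of 21 genes called, Emilin2 (0.748% of all genes tested were called). Of its 21 differences 15 were above 0, against 48.4% of all genes tested, and the median was 0.31. Adamts19, a secreted metalloprotease, rose from 25.7, 30 and 23.9% to 84, 86.6 and 70.2% (1.60 ± 0.26, adjusted p = 0.0417 with the block and 0.151 without it). Prss23, a secreted serine protease, rose from 45.8, 30.6 and 40% to 90.6, 102 and 112% (1.40 ± 0.14, adjusted p = 0.0155). Neither protease had overlapping groups, which was a condition for being listed among the largest rises. Mertk, a receptor tyrosine kinase used in the uptake of dying cells, rose from 2.4, 5.05 and 3.35% to 5.89, 15.1 and 9.12% (1.44 ± 0.16, adjusted p = 0.0177 with the block and 0.153 without it). Tmem255a, a transmembrane protein, rose by 1.84 ± 0.17 (adjusted p = 0.013), from 2.5, 3.21 and 2.58% to 10.3, 8.86 and 10.3%, while its second probe gave 0.60 and was measured on 5 of the 6 arrays.

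Map7, which binds and stabilises microtubules, was well above background on no control array. It stood at 2.51, 3.64 and 3.59% under set 1, at least 2.53-fold higher (adjusted p = 0.0177). A second Map7 probe, measured on 3 of the 6 arrays, gave a fitted difference of 2.42. Arsj, of the arylsulfatase family, was likewise not well above background on the controls and at 2.54, 2.43 and 2.64% under set 1. That is at least 2.00-fold higher (adjusted p = 0.0264). Myh3, the embryonic myosin heavy chain of muscle, rose from 1.86, 1.7 and 1.28% to 5, 5.02 and 3.31% (1.45 ± 0.17, adjusted p = 0.02). Dapk2, a calcium-dependent protein kinase linked to cell death, rose from 2.63, 5.89 and 2.2% to 10.2, 11.1 and 6.88% (1.50 ± 0.26, adjusted p = 0.0486 with the block and 0.174 without it), with the control of slide 2 nearest to the set 1 arrays. Chchd4, which carries out disulfide-coupled protein import into mitochondria, rose from 51.6, 67.5 and 78.9% to 233, 150.3 and 154% (1.43 ± 0.23, adjusted p = 0.0384).

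Falls were fewer and smaller. Apobec1, a cytidine deaminase that edits RNA, had control levels of 36.1, 37.8 and 56.5% and set 1 levels of 12.8, 19.1 and 13.9%. The highest set 1 array was well below the lowest control, and the difference was -1.50 ± 0.21 (adjusted p = 0.0266). Sox8, a SOX factor of glia and neural crest, fell from 12.3, 7.95 and 9.29% to 5.05, 4.29 and 3.19% (-1.24 ± 0.19, adjusted p = 0.0326 with the block and 0.0768 without it). Sox1ot, a non-coding transcript that overlaps the progenitor gene Sox1, fell from 7.52, 5.02 and 6.28% to 3.96, 2.52 and 2.45% (-1.09 ± 0.16, adjusted p = 0.0326 with the block and 0.0689 without it). Its second probe gave 0.39 and was measured on 1 of the 6 arrays, and Sox1 itself differed by -0.63 ± 0.19 (adjusted p = 0.195), so the call for this overlapping pair is uncertain. Moxd1, a copper monooxygenase, fell from 2.75, 2.87 and 3.95% to 1.64, 1.27 and 1.25%, of which 2 arrays were measured (-1.19 ± 0.19, adjusted p = 0.0365). Gucy1b2, a subunit of soluble guanylate cyclase, fell from 27.1, 15.1 and 21.3% to 10.3, 7.94 and 10.8% (-1.10 ± 0.15, adjusted p = 0.0264 with the block and 0.253 without it). None of these genes had overlapping groups, which was a condition for being listed among the largest falls.

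Enzymes, an exchanger and signalling proteins made up the rest of the largest falls. Mat2b, the regulatory subunit of the enzyme that makes S-adenosylmethionine, went from 677, 656 and 661% to 378, 371 and 300.3%, a difference of -0.93 ± 0.10 (adjusted p = 0.0177). Rfwd3, a ubiquitin ligase of the DNA damage response, fell from 802, 693 and 817% to 428, 432 and 389% (-0.88 ± 0.13, adjusted p = 0.0326). Fam181b fell from 189, 166 and 189.6% to 108, 100.3 and 76.8% (-0.95 ± 0.12, adjusted p = 0.0214). The controls of these genes differed little from each other. They stood clear of all set 1 arrays, which was a condition for being listed among the largest falls. Traf5, an adaptor of tumour necrosis factor receptors, fell by 1.08 ± 0.18 on the log2 scale (adjusted p = 0.0445 with the block and 0.051 without it), Nfatc3, a calcium-regulated transcription factor, by 0.85 ± 0.13 (adjusted p = 0.0326), and Slc24a4, a sodium, potassium and calcium exchanger, by 0.83 ± 0.13 (adjusted p = 0.0342). A second Nfatc3 probe gave -0.51.

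**Figure D3:**
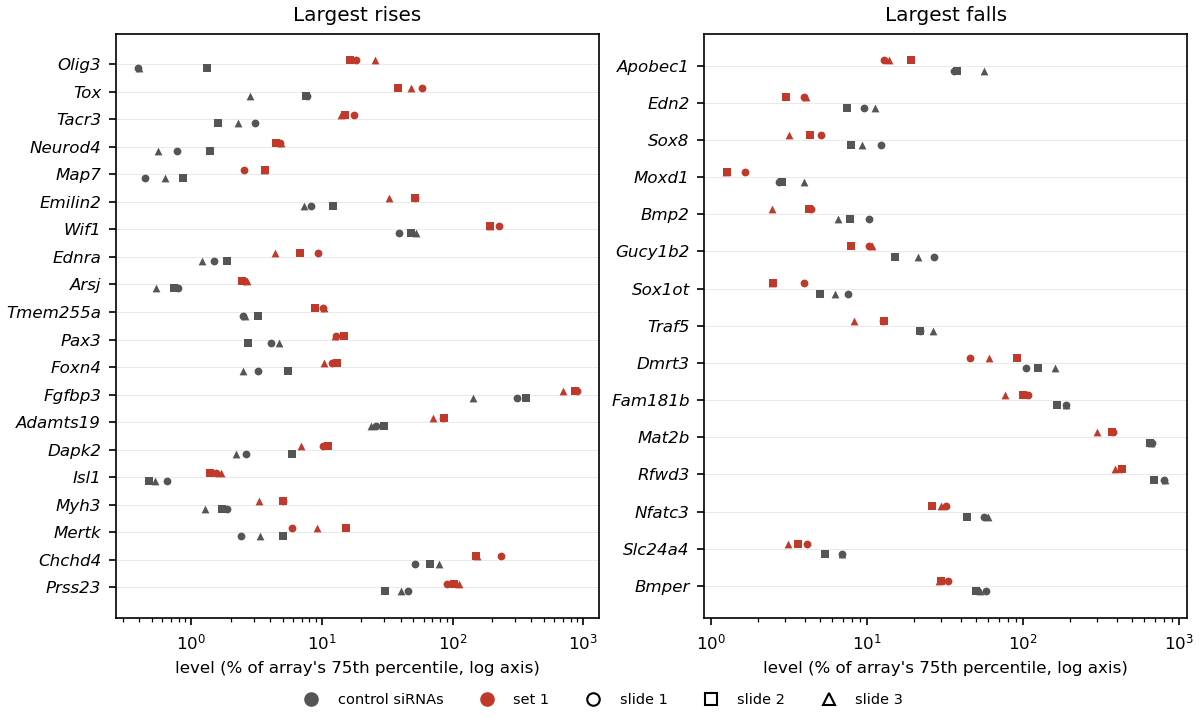
Scaled levels (percentage of each array's 75th percentile signal, log axis) of the 20 largest rises and 15 largest falls on the 3 control arrays (grey) and 3 set 1 arrays (red), with the slide as the marker shape. Genes were included when the arrays of the groups did not overlap, so the separation is part of the choice. Dmrt3 stands among the falls. The levels of Arsj, Map7 and Isl1 are well above background on no control array, and those of Olig3, Neurod4 and Ednra on 1 control array each.

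Further called genes, named here after their values were seen, include regulators of metabolism and protein handling. Gldc, the glycine decarboxylase of the glycine cleavage system, had control levels of 308, 305 and 264% and set 1 levels of 685, 679 and 625%, a difference of 1.18 ± 0.09 (adjusted p = 0.00515). Its set 1 arrays and control arrays did not overlap, as for nearly all called genes. Tomm20, a receptor for protein import at the outer mitochondrial membrane, rose by 0.80 ± 0.10 (adjusted p = 0.0243), and its second probe gave 0.77. Ndufa4, a subunit of the respiratory chain, rose by 0.92 ± 0.12 (adjusted p = 0.0264 with the block and 0.0747 without it), and Cox15, an enzyme of haem A synthesis, fell by 0.61 ± 0.09 (adjusted p = 0.0326 with the block and 0.209 without it). Hspa4l and Hsph1, chaperones of the Hsp110 group, rose by 0.80 ± 0.10 (adjusted p = 0.0214) and 0.53 ± 0.09 (adjusted p = 0.0483 with the block and 0.239 without it). Tle1, a Groucho co-repressor that works with many patterning factors, rose from 851, 829.9 and 719.9% to 1791, 1497 and 1913% (1.11 ± 0.14, adjusted p = 0.0264), with 1.07 and 0.53 at its other probes. Sparc, a matrix-associated glycoprotein, rose from 1791, 2429.7 and 2239.5% to 3567, 4971 and 4329.7% (0.99 ± 0.16, adjusted p = 0.0416 with the block and 0.0516 without it). Fst, an antagonist of activins and BMPs, rose by 0.90 ± 0.15 (adjusted p = 0.041 with the block and 0.19 without it). Bcor, a transcriptional co-repressor, fell by 0.56 ± 0.10 (adjusted p = 0.0486 with the block and 0.153 without it), and Csnk2a1, the catalytic subunit of casein kinase 2, fell by 0.74 ± 0.11 (adjusted p = 0.0326 with the block and 0.182 without it), while its other 3 probes gave -0.46, -0.48 and 0.00. In all, 25 called genes had further probes, and 26 of those 28 probes had the same sign as the probe used.

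Lists of the cortical hem, the choroid plexus and the signals of the dorsal midline held no call. The cortical hem ligands and markers had 0 of 17 called by limma, 4 with an unadjusted p under 0.05, 14 differences above 0 and a median of 0.29, or 0.06 without slide 1. Over all genes tested 13.9% had an unadjusted p under 0.05 and 48.4% a difference above 0. Bmp6, a BMP ligand, differed by 0.95 ± 0.26 (adjusted p = 0.154), Bmp4 by 0.83 ± 0.28 (adjusted p = 0.244), Rspo2, which strengthens Wnt signalling, by 0.80 ± 0.35 (adjusted p = 0.352) and the ligand gene Wnt9a by 0.60 ± 0.28 (adjusted p = 0.392). The choroid plexus and roof plate list had 0 of 11 called by limma, 3 with an unadjusted p under 0.05, and a median of 0.08, or -0.02 without slide 1. Otx2, a homeodomain factor of the choroid plexus and forebrain, came closest: it had control levels of 60.1, 102 and 90.1% and set 1 levels of 193, 228 and 153%, groups that did not overlap, and a difference of 1.20 ± 0.23 with an adjusted p of 0.0607. Clic6 of the choroid plexus differed by 1.33 ± 0.59 (adjusted p = 0.37), and the roof plate genes Lmx1a and Gdf7 by 0.29 ± 0.31 (adjusted p = 0.713) and -0.48 ± 0.14 (adjusted p = 0.199).

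Progenitor, cell cycle and neuronal lists also held no call. All 22 genes of DNA replication and S phase had a difference below 0, from -0.74 to -0.20, with a median of -0.43 where the median over all genes tested was -0.01. By limma 0 were called, 10 had an unadjusted p under 0.05, and 8 had all set 1 arrays below all controls, as did 7.09% of all genes tested. Within slides 1, 2 and 3 the median was -0.40, -0.32 and -0.64. Cdt1, a licensing factor of replication origins, had control levels of 1746, 1111 and 1787% and set 1 levels of 1056, 753 and 945% (-0.74 ± 0.23, adjusted p = 0.217). Mcm4, of the replicative helicase, differed by -0.57 ± 0.24 (adjusted p = 0.336), the loading factor gene Cdc6 by -0.58 ± 0.24 (adjusted p = 0.331) and the sliding clamp gene Pcna by -0.50 ± 0.21 (adjusted p = 0.327). The G2 and mitosis list had 0 of 22 called and 0 with an unadjusted p under 0.05 by limma, and a median of -0.09. There Bub1, of the spindle checkpoint, differed by -0.35 ± 0.19, Kif11, a spindle motor, by -0.29 ± 0.18, Birc5, of the chromosomal passenger complex, by -0.27 ± 0.16 and Cdk1, the mitotic kinase, by -0.26 ± 0.16, with adjusted p of 0.454, 0.5, 0.489 and 0.483.

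In the radial glia and neuroepithelium list 0 of 16 genes were called by limma and 6 had an unadjusted p under 0.05, with a median of -0.09. Slc1a3, a glutamate transporter of radial glia, had control levels of 146, 172 and 102% and set 1 levels of 278, 255 and 237%, a difference of 0.90 ± 0.16 with an adjusted p of 0.0538. Sox9, a glial and stem cell factor, differed by -0.51 ± 0.15 (adjusted p = 0.178). Of the Notch pathway, 0 of 16 were called by limma, 2 had an unadjusted p under 0.05, 12 differences were below 0 and the median was -0.08. Lfng, which modifies Notch receptors, differed by -0.54 ± 0.14 (adjusted p = 0.143), the effector gene Hes5 by -0.38 ± 0.12 (adjusted p = 0.213), Hey1 by -0.31 ± 0.14 (adjusted p = 0.375) and the receptor gene Notch1 by -0.29 ± 0.59 (adjusted p = 0.859).

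Cajal-Retzius neurons are early neurons of the cortical marginal zone, many of which come from the hem and other medial sites. Their list had 0 of 15 called by limma, 9 with an unadjusted p under 0.05, 13 differences above 0 and a median of 0.60. Of all genes tested, 13.9% had an unadjusted p under 0.05 and 48.4% a difference above 0. All 3 set 1 arrays lay above all 3 controls for 5 of the 15, against 7.48% of all genes tested. They lay below for 1, against 7.09%. Zic1, a zinc-finger factor of medial tissue, had control levels of 1214, 1417 and 893% and set 1 levels of 2283, 2598 and 1535% (0.86 ± 0.18, adjusted p = 0.0887). Lhx5, a LIM-homeodomain factor, had 32.2, 52.4 and 37.2% and 80.9, 116 and 67.3% (1.11 ± 0.28, adjusted p = 0.137), and neither gene's groups overlapped. Zic4 differed by 1.14 ± 0.29 (adjusted p = 0.133) and Reln, the secreted protein that guides cortical layering, by 1.16 ± 0.48 (adjusted p = 0.334). The postmitotic neuron list had 0 of 17 called and 2 with an unadjusted p under 0.05 by limma, and a median of 0.18 that was 0.13, -0.39 and 0.76 on slides 1, 2 and 3 and -0.12 without slide 3. Elavl4, an RNA-binding protein of neurons, differed by 0.33 ± 0.13 (adjusted p = 0.326), and the cytoskeletal genes Nefl, Ina and Stmn2 by 0.74 ± 0.31, 0.30 ± 0.38 and 0.34 ± 0.36 (adjusted p = 0.336, 0.773 and 0.714). Of 25 axon guidance genes 0 were called by limma, 6 had an unadjusted p under 0.05, and the median was 0.04. Robo3, a receptor that governs midline crossing, differed by -1.35 ± 0.37 (adjusted p = 0.155) with 1 high control, at 42.3, 42.2 and 126% against 24.6, 26.4 and 21.1%. Robo1, a receptor for Slit ligands, differed by 0.80 ± 0.24 (adjusted p = 0.205), and the semaphorins Sema3a and Sema3c by 0.70 ± 0.17 (adjusted p = 0.119) and 0.84 ± 0.50 (adjusted p = 0.487).

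Genes that respond to damage, to double-stranded RNA or to the siRNA machinery were read separately. The p53 response list had 2 of 21 genes called, both higher, where 0.748% of all genes tested were called, and 5 with an unadjusted p under 0.05. Its median of 0.19 was -0.01, 0.03 and 0.05 without slides 1, 2 and 3, and 0.10 over the 20 genes well above background on all 6 arrays. Ccng1, cyclin G1, rose from 15.8, 24.4 and 16.9% to 40.2, 38.6 and 42.5% (1.11 ± 0.18, adjusted p = 0.0408 with the block and 0.0653 without it). Eda2r, a receptor for ectodysplasin A2, was well above background on 0 control arrays and on 1 of the 3 set 1 arrays, so no fold is given. With the dim values at the lowest measured signal its difference was -0.075, so the call does not establish a rise. The small RNA machinery list had 0 of 15 called by limma, 4 with an unadjusted p under 0.05, and a median of 0.01. Dcp2, an mRNA decapping enzyme, had control levels of 42.1, 38.3 and 42.1% and set 1 levels of 28.4, 30.1 and 23.6%, without overlap (-0.58 ± 0.11, adjusted p = 0.0715). Dicer1, which cuts microRNA precursors, differed by -0.33 ± 0.11 (adjusted p = 0.243), and the Argonaute genes Ago3 and Ago4 by 0.26 ± 0.21 (adjusted p = 0.595) and 0.29 ± 0.22 (adjusted p = 0.575). Among 15 interferon-stimulated genes that passed the filter 0 were called and 0 had an unadjusted p under 0.05 by limma. Of these, 4 were not well above background on any of the 6 arrays and passed through other groups. The median of 0.11 was 0.00 over the 7 genes well above background on all 6 arrays and -0.10 without slide 1. Isg15, Bst2, Oas2 and Usp18 differed by -0.13 ± 0.68, -0.44 ± 0.65, 0.16 ± 0.37 and 0.46 ± 1.26 (adjusted p = 0.955, 0.804, 0.886 and 0.903). Among 16 stress response and unfolded protein response genes 0 were called and 1 had an unadjusted p under 0.05 by limma, with a median of -0.02. There Dnajb1, a co-chaperone, differed by -0.30 ± 0.12, Gclm, of glutathione synthesis, by -0.29 ± 0.13, Ddit3 by 0.22 ± 0.17 and Jun by -0.24 ± 0.27 (adjusted p = 0.311, 0.388, 0.592 and 0.728).

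Markers of cells other than telencephalic cells were read as lists too, and none of their genes was called by limma. Of the mesenchyme and meninges list 7 of 14 genes were measured, and Twist1, Foxc1, Foxc2, Foxd1, Tbx18, Lum and Ogn were not well above background on enough arrays. The measured genes had a median difference of 1.14 and 3 had an unadjusted p under 0.05, but the median was 3.90, 0.41 and 0.78 on slides 1, 2 and 3. Set 1 replicate 1 stood apart: Col1a1, a fibrillar collagen of connective tissue, was at 131, 5.58 and 7.3% under set 1 and at 2.14, 6 and 3.77% under control siRNAs, and Col1a2 at 229, 11.3 and 14.3% and 14.9, 8.54 and 13.5%. Dcn, a small matrix proteoglycan, was higher on all 3 set 1 arrays, 219, 163 and 219% against 77.7, 122 and 77.4% (1.14 ± 0.23, adjusted p = 0.0747). The summed level of the list ran from 1023 to 1584% on control arrays and from 1804 to 3023% on set 1 arrays. Zic1, listed there and among the Cajal-Retzius genes, gave much of those sums. Without set 1 replicate 1, 4 genes were called over all genes, and all 115 called genes kept their sign. All 115 had the same sign on every slide to begin with. Keeping the sign could therefore hardly fail and does not show the part of these cells. That part in the rises of the matrix genes Emilin2 and Sparc was not tested.

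Erythroid markers were high on the same array. Of 10 genes 7 were measured, with 2 at an unadjusted p under 0.05, and their median difference was 0.91, or 1.81, 0.21 and 0.36 on slides 1, 2 and 3, and 0.59 over the 5 genes well above background on all 6 arrays. The summed level was 1875% on set 1 replicate 1 and between 181 and 411% on the other set 1 and control arrays. The embryonic globin gene Hbb-y was at 1389, 79 and 222% under set 1 and 216, 68.3 and 247% under control siRNAs, Hbb-bh1 differed by 0.93 ± 0.76, the adult globin gene Hba-a1 by 0.56 ± 0.43 and the erythroid factor gene Klf1 by 0.59 ± 0.17 (adjusted p = 0.636, 0.615, 0.59 and 0.181). Without set 1 replicate 1 the difference was -0.11 for Hbb-y and -0.19 for Hbb-bh1. Microglia and macrophage markers were higher on average, with 13 of 14 measured, 12 of 13 differences above 0, 9 at an unadjusted p under 0.05 and a median of 0.75, or 0.52 over the 9 genes well above background on all 6 arrays. Their defining genes were low but measured: Tyrobp was at 3.63, 3.8 and 7% under control siRNAs and 11.9, 9.71 and 7.56% under set 1 (1.06 ± 0.27, adjusted p = 0.141). C1qc differed by 0.91 ± 0.28, Cx3cr1 by 0.75 ± 0.21 and Aif1 by 0.63 ± 0.22 (adjusted p = 0.212, 0.165 and 0.263), all with no overlap. All 3 set 1 arrays lay above all 3 controls for 7 of the 13 microglial genes, against 7.48% of all genes tested. The summed microglial level overlapped between the groups, at 1379 to 2464% on control arrays and 1137 to 2617% on set 1 arrays. The brightest probes weigh most in that sum, and the low defining genes add little to it. Mertk, which rose, is also made by macrophages, and the part of those cells in its rise was not tested.

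Endothelial and pericyte markers, 10 of 13 measured, had 1 gene at an unadjusted p under 0.05. Their median of 0.34 was -0.06 over the 7 genes well above background on all 6 arrays, with Cldn5 at 0.34 ± 0.51, Egfl7 at -0.38 ± 0.21, Cspg4 at 0.35 ± 0.18 and Pdgfrb at 0.86 ± 0.33 (adjusted p = 0.806, 0.443, 0.428 and 0.292). Their summed level overlapped, at 758 to 1381% on control arrays and 588 to 1426% on set 1 arrays. Surface ectoderm and epithelium markers, 10 of 12 measured, had 2 genes at an unadjusted p under 0.05 and a median of -0.13, or -0.05 over the 7 genes well above background on all 6 arrays. Grhl3 differed by -1.24 ± 0.48, Cldn7 by -0.16 ± 0.10, Krt14 by 0.28 ± 0.31 and Trp63 by -0.12 ± 0.13 (adjusted p = 0.311, 0.497, 0.726 and 0.727), and the summed levels were 893 to 1154% and 663 to 1228%. The telencephalic progenitor markers had a median of -0.12 over 10 genes, 3 at an unadjusted p under 0.05. Of their differences 8 were below 0 and 2 above, where 48.4% of all genes tested lay above 0. Fabp7, 1 of the 2 above 0, was at 0.24 ± 0.14 (adjusted p = 0.486). The neuron markers had a median of 0.25 over 8 genes, 2 at an unadjusted p under 0.05, and of -0.01 without slide 3, with Tbr1 at 0.28 ± 0.29 (adjusted p = 0.707). Summed progenitor levels were 22489 to 25981% under control siRNAs and 21054 to 24450% under set 1, and summed neuron levels 6285 to 10017% and 7713 to 10367%. The groups overlapped in both sums.

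**Figure D4:**
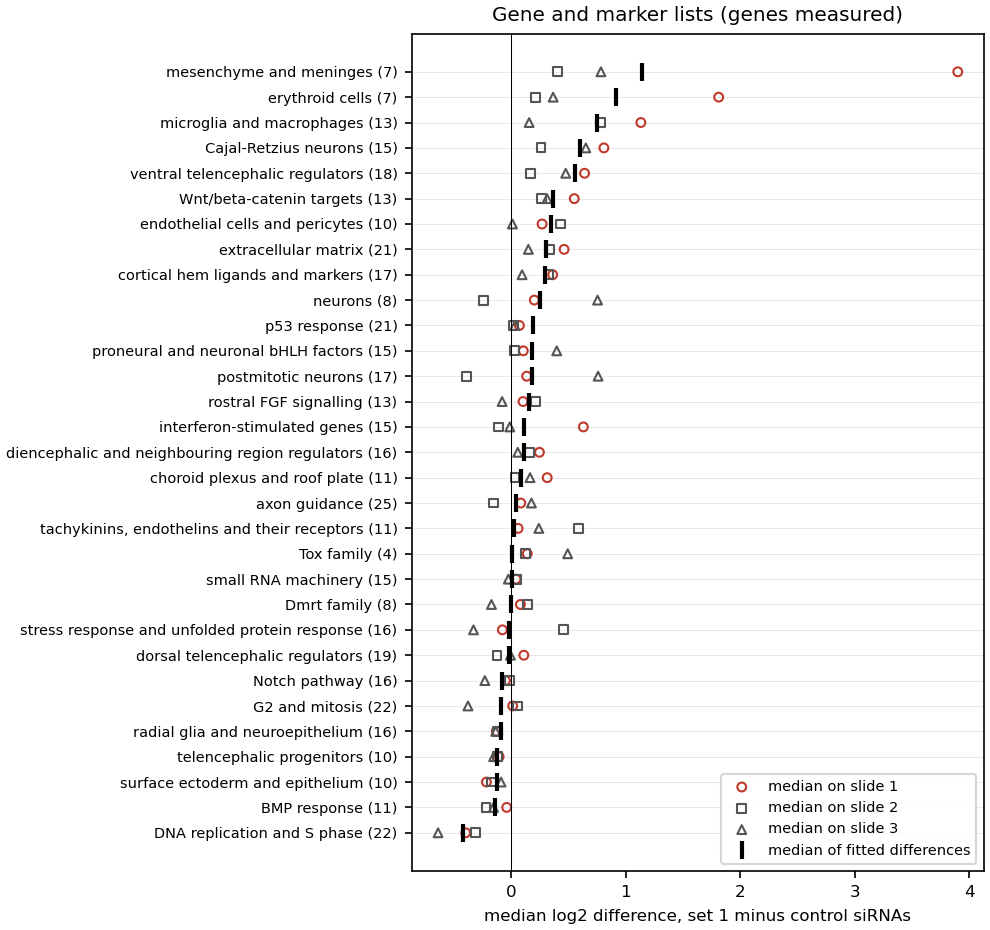
Median log2 difference between set 1 and control siRNAs for each of the 24 gene lists and 7 marker lists, with the number of genes measured in brackets; the black bar is the median of the fitted differences, and open markers are the medians on slides 1 (red), 2 and 3. The mesenchyme and erythroid lists lie far to the right on slide 1 alone, at 3.90 and 1.81, while the DNA replication list lies below 0 on every slide.

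Set 2 was directed against the same transcripts, and the difference between the sets was tested directly. Of 15368 genes 37 (0.241%) differed between set 2 and set 1 by limma, 14 higher in set 2 (0.0911%) and 23 lower (0.15%), and 12 without the replicate block. Leaving out 1 array gave counts from 0 to 43, and 0 in each fit without control replicate 1, set 1 replicate 1 or 3, set 2 replicate 1, 2 or 3, or overexpression replicate 1 or 3. Both sets were compared with the same 3 control arrays, so their differences from control are not independent of each other. Against those controls 362 genes (2.36%) were called for set 2. Tox differed from control by 3.12 ± 0.33 in set 1 and 2.96 ± 0.33 in set 2, Tacr3 by 2.79 ± 0.23 and 2.14 ± 0.23, and Chchd4 by 1.43 ± 0.23 and 1.44 ± 0.23. Differences between the sets for these genes were -0.16 ± 0.33, -0.65 ± 0.23 and 0.01 ± 0.23 (set 2 minus set 1, adjusted p = 0.861, 0.243 and 0.989). Olig3 was at 1.61, 5.2 and 1.96% under set 2, below every set 1 array, but the difference of -2.95 ± 0.50 did not pass (adjusted p = 0.068). Emilin2 was at 20.7, 21 and 19.3% under set 2, also below every set 1 array (-1.12 ± 0.17, adjusted p = 0.0539). Ccng1 was at 68.5, 88.5 and 55.2% under set 2, above every set 1 array (0.78 ± 0.18, adjusted p = 0.119). Dmrt3 and Dmrta2 differed between the sets by 0.22 ± 0.16 (adjusted p = 0.573) and 0.30 ± 0.14 (adjusted p = 0.372).

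Of the 115 genes, 10 were also called between the sets, and each was nearer to control in set 2. The set 1 arrays enter both comparisons, so choosing genes by both calls favours that side and the position of set 2 is a description. Fgfbp3 was at 338, 346 and 245% under set 2, against 889.5, 865 and 696% under set 1 and 311, 365 and 142% under control siRNAs, so that the set 2 arrays overlapped the controls and lay below all set 1 arrays. Pth1r, the receptor for parathyroid hormone and its related peptide, was at 32.4, 37.4 and 38.7% under set 2, 93.6, 130.2 and 89% under set 1 and 37.5, 64.6 and 31.7% under control siRNAs. Slc7a10, a transporter of small neutral amino acids, was at 11.8, 10.4 and 9.29%, 29.7, 32.4 and 23.6% and 14.3, 17.4 and 10.2% in the same order. These genes rose with set 1 (1.27 ± 0.17 for Pth1r, adjusted p = 0.0264 with the block and 0.0789 without it; 1.05 ± 0.14 for Slc7a10, adjusted p = 0.0264 with the block and 0.0628 without it) and, together with Tgfb3, were the 4 higher genes of the 10. Meis2, a homeodomain factor of the TALE class with known roles in the forebrain, fell with set 1, from 740.5, 554 and 529% to 412, 371 and 335% (-0.69 ± 0.10, adjusted p = 0.0266 with the block and 0.119 without it), and was at 749, 637 and 647% under set 2. Rngtt, the mRNA capping enzyme, was at 191, 202 and 186% under control siRNAs, 120.5, 125 and 125% under set 1 and 184, 197 and 195% under set 2 (-0.65 ± 0.08 in set 1, adjusted p = 0.0264). A second Rngtt probe gave -0.20 in set 1. Pdf, the mitochondrial peptide deformylase, was at 257, 253 and 233%, 166, 156 and 155% and 260.1, 259 and 249% in that order (-0.64 ± 0.08 in set 1, adjusted p = 0.0264). For Rngtt and Pdf set 2 and control arrays interleaved while the set 1 arrays lay apart below. Chp1, a calcineurin-like calcium-binding protein, fell by 0.57 ± 0.08 in set 1 (adjusted p = 0.0264 with the block and 0.0516 without it; second probe -0.11), Otud7b, a deubiquitinating enzyme, by 0.75 ± 0.13 (adjusted p = 0.0486 with the block and 0.0747 without it) and Mat2b by 0.93 ± 0.10.

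**Figure D5:**
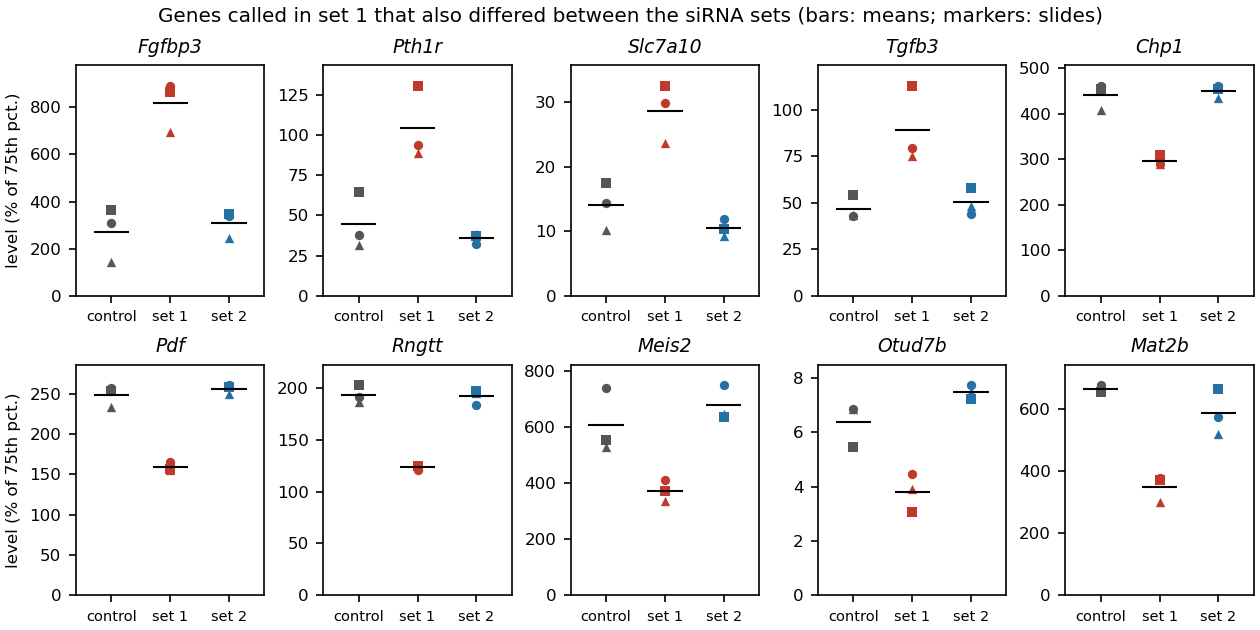
Scaled levels (percentage of each array's 75th percentile signal) of the 10 genes called both in set 1 against control siRNAs and in set 2 against set 1, on the 3 control (grey), 3 set 1 (red) and 3 set 2 (blue) arrays; bars are means and marker shapes are slides. In each gene the mean of the set 2 arrays lies closer to the control mean than that of the set 1 arrays, which the choice of genes by both calls favours.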

How the data were processed

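Spot intensities were deposited by the authors as Agilent Feature Extraction 10.5.1.1 output, in which the processed signal is corrected for background and spatial trend within an array, with no step between arrays, per the file headers. The log2 values of the authors' deposited table carry no stated scale or centring. Set against the scanner values, they were the processed signal scaled to each array's 75th percentile and centred on each probe's median, with correlations above 0.999 and column medians from -0.13 to 0.10.

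Control spots and spots marked as outliers (136 to 218 of 43020 per array) were left out, and no spot was saturated. From each log2 processed signal the array's 75th percentile, which ran from 572 to 1143 on the intensity scale, was subtracted. Probes were named through their RefSeq accession in RefSeq's mouse genes (GRCm38.p6), which named 26055 of 39429 probes for 19751 genes. Probes well above background on at least 3 of 12 arrays were kept, the brightest represented its gene, and 15368 genes with at least 2 values in each group remained. Promoter sequences were taken from RefSeq, GRCm38.p6, and matched 12210 of these genes.

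Differences were fitted with limma 3.58.1 in R 4.3.3 (lmFit and eBayes) over all 12 arrays, with the replicate number as a block, Benjamini-Hochberg adjustment and 6 residual degrees of freedom. Arrays with the same number share a slide, and their deviations from the group means correlated at 0.45, 0.52 and 0.20 for numbers 1, 2 and 3, against -0.50 to 0.13 for different numbers. The deviations were centred within each group. Positive correlations for the same number therefore push those for different numbers downward, so the contrast is partly built in. The fit was tested on simulated data. Dim values were set, where said, at the lowest signal well above background on the array, and a fold against a group not well above background is a lower bound. Precision is limited by the number of arrays.

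The comparison, the 24 gene lists, the 7 marker lists and the rule for named genes were chosen with earlier results of these data known. The rule took the targeted genes, the 20 largest rises and 15 largest falls without overlap and with every array of the brighter group measured, every called list member, up to 4 members of each list without a call, and up to 12 genes called both against control and between the siRNA sets. Alternatives covered the block, the arrays fitted, the background correction, the normalization, the deposited table, the filter, the probe summary, left-out arrays and a fold threshold.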

Additional observations from a re-analysis of the deposited data

Results flagged for a closer look

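For 10 genes called in set 1 the difference from control siRNAs was not the same in set 2, by limma's test of set 2 minus set 1 over all genes with the replicate block. Genes that rose with set 1 were lower in set 2: Pth1r by -1.51 ± 0.17 (log2, SE; adjusted p = 0.0295), Slc7a10 by -1.44 ± 0.14 (adjusted p = 0.0193), Fgfbp3 by -1.41 ± 0.18 (adjusted p = 0.0343) and Tgfb3 by -0.81 ± 0.11 (adjusted p = 0.037). Genes that fell with set 1 were higher in set 2: Otud7b by 0.99 ± 0.13 (adjusted p = 0.0343), Meis2 by 0.86 ± 0.10 (adjusted p = 0.0295), Mat2b by 0.75 ± 0.10 (adjusted p = 0.0438), Pdf by 0.69 ± 0.08 (adjusted p = 0.0343), Rngtt by 0.64 ± 0.08 (adjusted p = 0.0362) and Chp1 by 0.60 ± 0.08 (adjusted p = 0.0343). The set 1 arrays enter both comparisons, so the direction is favoured by the choice of genes called in both.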

How the results depend on the processing

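Without the replicate block 33 genes were called for set 1 against control and 12 for set 2 against set 1, and Dmrt3 kept its difference of -1.01 with an adjusted p of 0.235. A fit of the 6 arrays alone, with 2 residual degrees of freedom with the block and 4 without it, called 0 genes in both cases, with 2175 and 1246 genes at an unadjusted p under 0.05, and gave Dmrt3 the same -1.01 with adjusted p of 0.23 and 0.451. With no filter on dim probes 17 and 5 genes were called and the adjusted p of Dmrt3 (-1.01) was 0.075. A log2 difference of at least 1 left 52 and 15 genes. For set 2 against set 1 the count was 76 with normexp background correction, 56 with quantile normalization, 75 with probes measured on all 12 arrays and 21 with the mean over probes. Leaving out 1 array gave 0 to 146 genes for set 1, 0 to 43 for set 2 against set 1, -1.24 to -0.85 for Dmrt3 and -0.74 to -0.50 for Dmrta2. Leaving out 1 slide gave 0 to 1 genes, 0 to 7 genes, -1.29 to -0.82 for Dmrt3 (-0.93 without slide 1) and -0.65 to -0.55 for Dmrta2. These fits hold fewer residual degrees of freedom (5, or 3 without a slide), and without slides 1, 2 and 3 the count for set 1 was 0, 1 and 0, with 1164, 2867 and 1264 genes at an unadjusted p under 0.05. For set 1 the other settings gave counts of 133 (normexp), 119 (quantile), 99 (deposited table), 136 (measured on all arrays) and 96 (mean over probes). Normexp used the median spot signal, and local backgrounds over 10 times the array's median, at most 24 spots on an array, were replaced by that median. No called gene changed sign when 1 array or 1 slide was left out, but each had the same sign on every slide to begin with. Of the 124 genes named, 13 that were not called changed sign under at least 1 setting. Without slide 1 the difference was -0.064 for Hba-a1, -0.12 for Hbb-bh1, -0.053 for Lmx1a, 0.18 for Notch1, -0.081 for Oas2 and -0.10 for Usp18. Without slide 2 it was 0.059 for Isg15 and 0.085 for Trp63, without slide 3 it was -0.15 for Krt14, and with normexp it was -0.019 for Oas2. Leaving out 1 array gave -0.75 to 0.053 for Bst2, -0.14 to 0.60 for Cldn5, -0.19 to 1.88 for Hbb-bh1, -0.11 to 1.63 for Hbb-y, -0.48 to 0.32 for Isg15, -0.16 to 0.54 for Krt14, -0.14 to 0.52 for Lmx1a, -0.94 to 0.060 for Notch1, -0.0051 to 0.39 for Oas2, -0.045 to 0.82 for Stmn2, -0.21 to 0.029 for Trp63 and -0.33 to 1.42 for Usp18. The medians of 12 of the 31 lists changed sign under at least 1 of the 5 settings run on lists. Those with a median over 0.1 in size were the diencephalic regulators (-0.02), the p53 response (-0.01) and the interferon-stimulated genes (-0.10) without slide 1, and the postmitotic neurons (-0.12) and neuron markers (-0.01) without slide 3. The cause was not tested. The median of all genes moved by less than 0.1 under every scaling. Dim probes limit the size of a rise: signals not well above background give bounds only.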

Other observations

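Some called genes, named here after their values were seen, had control levels not well above background, so that at most a bound can be given. Mylk, the myosin light chain kinase of smooth muscle, was measured on no control array and on all set 1 arrays, at least 1.46-fold higher (adjusted p = 0.0264 with the block and 0.128 without it). Thap2, a zinc-finger protein, was at least 1.36-fold higher in the same way (adjusted p = 0.0177). Slc5a7, the choline transporter of cholinergic neurons, was measured on 2 of 3 set 1 arrays and on no control (adjusted p = 0.0452 with the block and 0.0664 without it). The same held for Insc, which orients the spindle in dividing progenitors (adjusted p = 0.0403 with the block and 0.0669 without it). With dim values at the lowest measured signal their differences were 0.28 and 0.24, against fitted differences of 1.77 and 1.50. Both were kept through siRNA arrays alone, so these calls do not establish a rise.

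Other called genes belong to membrane traffic, growth control and metal transport. Chmp2b, of the machinery that sorts membrane proteins into endosomes, had control levels of 30.7, 26 and 24.6% and set 1 levels of 50.1, 42.4 and 46.4% (0.78 ± 0.12, adjusted p = 0.0326 with the block and 0.0559 without it). C9orf72, which takes part in autophagy and endosomal traffic, rose from 162, 209.7 and 147% to 309.8, 333 and 325% (0.91 ± 0.16, adjusted p = 0.0486 with the block and 0.0516 without it). Atp7a, a copper pump, rose by 0.77 ± 0.11 (adjusted p = 0.0302 with the block and 0.0653 without it), and Lats2, a kinase of the Hippo pathway, by 0.51 ± 0.09 (adjusted p = 0.0486 with the block and 0.339 without it). The arrays of the groups did not overlap for any of these 4 genes, as for nearly all called genes. Chil4, a chitinase-like protein, fell by 1.82 ± 0.31 (adjusted p = 0.0486 with the block and 0.38 without it) with overlapping groups, 6.82, 2.37 and 3.98% against 3.44, 0.56 and 0.762%. Only 1 of its set 1 arrays was well above background, and with the others at the lowest measured signal the difference was -1.38.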
